A study of Apis mellifera with 138 samples.

Results

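The 100 genes described here are those whose brain expression followed egr (LOC726302) most closely from bee to bee. They were chosen by a measured value, the correlation with egr, out of 9118 bee genes tested in the brain and 12332 bee genes counted in all. Expression was taken as log2(CPM+1), where CPM is the number of reads of a gene per 1000000 reads counted on bee genes in that library, and the mean of each colony and treatment group was removed before correlation. A gene had to correlate better with egr than with Hsp90, which encodes a heat shock protein, and 4799 genes did so. The 100 with the highest Pearson r to egr were kept, and egr itself was left out.

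Egr is a zinc finger transcription factor and an immediate early gene: its transcription rises within minutes when a neuron is activated, and it then regulates other genes. HR38, a nuclear receptor of the NR4A family, is another gene of this kind in insects. In honey bees, egr and HR38 are known as markers of neural activity related to foraging.

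The libraries were made from single worker bees fed 1000 pmol of antag-305, an antisense oligonucleotide against the microRNA miR-305, or of antag-missense, a control oligonucleotide, and collected 48 h later at 5 days of age. All bees were kept singly in cages in an incubator, and the bees of each of the 3 colonies, R2, R3 and R42, came from a queen inseminated by a single drone. Colony and trial cannot be told apart, because each trial used 1 colony. Brain was measured in 67 bees, of which 35 received antag-305 (12 in R2, 12 in R3 and 11 in R42) and 32 antag-missense (11, 11 and 10). Abdominal fat body, still attached to the cuticle, was measured in 65 bees, all of which also had a brain library.

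Library totals ran from 5825129 to 49150105 reads on bee genes in the brain and from 5346264 to 29204597 in the fat body. The median brain total was 15035226 reads with antag-305 and 13414596 reads with antag-missense. The within-colony difference of log2 totals was 0.22 and did not pass a two-sided permutation test with 100000 resamples (p = 0.0592). Of the neuron markers listed, 6 were matched, and their summed level ran from 1287 to 1654 CPM in the brain and from 14.6 to 945 CPM in the fat body. The royal jelly genes of the hypopharyngeal gland, which was removed from the brains, summed to between 5.26 and 2144 CPM. The r to egr of the 8 of them that were tested lay between -0.20 and 0.26. In the brain the summed neuron markers had an r of 0.65 to egr, with group means removed, and Eaat-2, the 1 glial marker matched, an r of 0.71. Among the 6 neuron markers the r ran from -0.04 for Syt1 to 0.69 for Nrx-1. Syt1 was the most abundant of them, at a median of 948 CPM. The part of these cell types in the results was not tested.

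The r of the 100 genes to egr ranged from 0.84 to 0.92, with a median of 0.86, whereas the median over all genes tested was 0.05. These values chose the genes and are given as a description only. The points share libraries and library depth. The last 3 genes inside the limit were LOC412838, LOC408462 and LOC410534, and the first 3 outside it were LOC408653, LOC408275 and LOC725878. All 6 had an r between 0.84 and 0.85, so the limit cuts through a continuous series. In all, 391 genes had an r over 0.8 and 316 had an r under -0.8. Hsp90 had an r of 0.16 to egr, and the r of the 100 genes to Hsp90 lay between -0.10 and 0.23.

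HR38 (LOC551232, chromosome 13, 5711443 to 5719422, minus strand of HAv3.1) stood at the head of the list with an r of 0.92. Next came LOC100576993, LOC410044, LOC409774, LOC552289, LOC102655661, LOC727423, LOC408780, LOC408528 and LOC725046, with r from 0.89 to 0.88. Of these, the study's tables describe LOC408528 as a colorectal mutant cancer protein, and the annotation used here gives the others no name. Of the 100 genes, 7 carry a symbol and 22 a description, 28 in all. Descriptions came from the study's table of genes that differed between treatments, so 22 of these 28 genes, against 5 of the other 72, were called in the treatment comparison below.

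The 28 included genes of cell surface and signalling proteins. InR-2 encodes an insulin receptor, nAChRb1 a subunit of the nicotinic acetylcholine receptor, Dscam an adhesion molecule of growing axons, and Pkc a protein kinase C. LOC410589 was described as semaphorin-5A, of an axon guidance family, and LOC412778 as chondroitin sulfate proteoglycan 4. PRF encodes profilin, which binds actin, and Vha16 a subunit of the vacuolar proton pump. LOC409288 was described as tribbles homolog 2, LOC551895 as serine/threonine-protein kinase 17A and LOC410159 as a subunit of Mediator, the complex that links transcription factors to RNA polymerase II.

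The 100 genes also followed each other. The r between pairs of them ranged from 0.69 to 0.99, with a median of 0.91. The first principal component of the centred brain data held 46.2% of the variance over all 9118 genes, and the 100 genes had r to it from 0.81 to 0.99. Of all genes tested, 29.2% had an r to it over 0.8 in size, in either direction, so many other genes varied with this component too. Calls among these genes are therefore not separate observations. By colony, the median r over the 100 genes was 0.90 in R2 (n = 23), 0.85 in R3 (n = 23) and 0.84 in R42 (n = 21). It was 0.85 among bees fed antag-305 (n = 35) and 0.87 among bees fed antag-missense (n = 32).

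**Figure D1:**
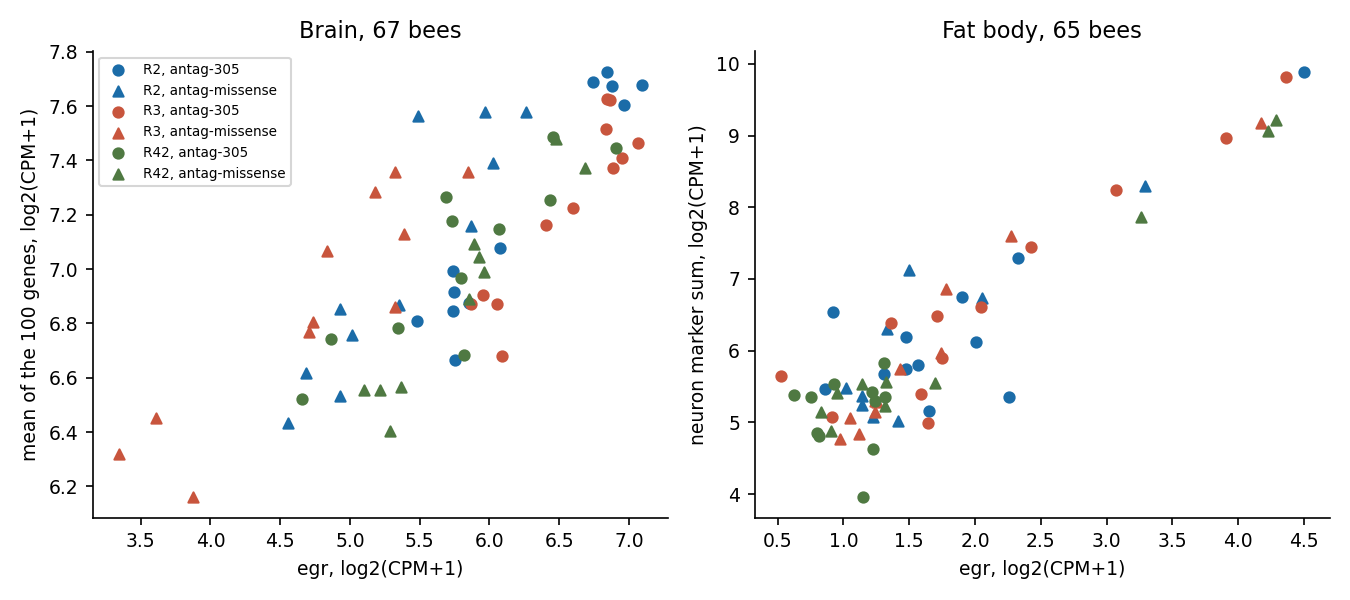
Left, the mean log2(CPM+1) of the 100 genes against that of egr in 67 brains. Right, the summed neuron markers against egr in 65 fat bodies. Points are single bees, colored by colony and shaped by treatment. In brains the values rise together. At a like mean of the 100 genes, egr in R3 is lower with antag-missense than with antag-305. Of the fat bodies, 9 have a neuron marker sum over 200 CPM.

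Egr varied widely between bees. In the brain it ranged from 24.2 to 135 CPM with a median of 66.5 CPM in the antag-305 bees, and from 9.15 to 102 CPM with a median of 39.1 CPM in the antag-missense bees. The SD of its centred log2 level was 0.62. That of the 100 genes ran from 0.13 to 0.88, with a median of 0.37, and 10 of them varied more than egr.

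Most of the 100 genes were long. Reads were counted over whole gene spans, introns included. The median span of the 100 genes was 27699 bases, against 4291 bases over all genes tested. A span over 10000 bases was found for 76 of them and for 26.7% of all genes tested, and a span over 100000 bases for 15 of them and for 4.22%. The longest, LOC410785, covers 268849 bases of chromosome 1. Short genes were present too, such as nAChRb1 with 2343 bases. Across genes, which are not independent replicates, Spearman's rho of span with r to egr was 0.40.

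**Figure D2:**
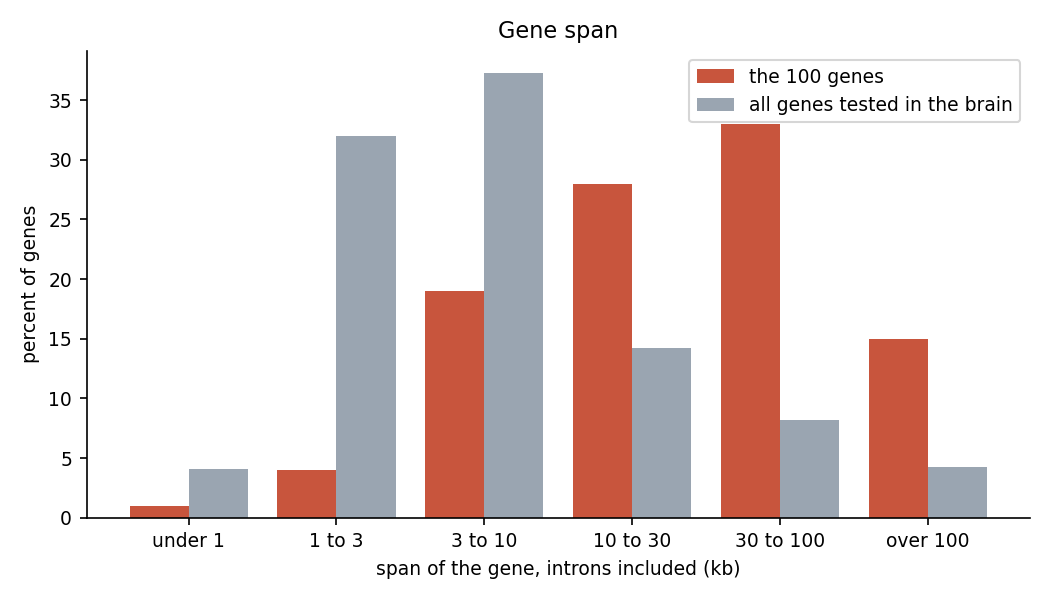
Percent of genes in each class of gene span (kb, introns included) for the 100 genes and for all 9118 genes tested in the brain. Of the 100 genes, 76 span over 10000 bases.

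At the other end of the range, 11 of the 12 mitochondrial genes tested had a negative r to egr, down to -0.87 for COX3, a subunit of cytochrome oxidase. Rpl39, a ribosomal protein gene, had an r of -0.85. The mitochondrial genes took 0.929 to 2.62% of the brain reads. Over 67 brains, with group means removed, this share had a Pearson r of -0.69 and a Spearman rho of -0.69 with egr (permutation p = 1e-05 and adjusted p = 1e-05 for r, the smallest that 100000 resamples can give, and r = -0.67 without the 2 bees farthest from the median). The library total had an r of 0.55 and a rho of 0.52 with egr (permutation p = 1e-05 and adjusted p = 1e-05 for r, and r = 0.52 without the 2 farthest bees). These were the 2 relations of egr tested by permutation. Egr also had an r of 0.86 to the first principal component, which was not tested. For the 100 genes the median r was 0.59 to the library total and -0.71 to the mitochondrial share. The part of depth and of mitochondrial share in the correlation with egr was not tested beyond these values and 2 reselections. With the library total removed by regression, 91 of the 100 genes were chosen again, and with a smooth trend on gene span removed from each library, 52 were. After the span trend was removed, the median r of the 100 genes to egr was 0.79 and their lowest 0.26. HR38 had the highest, 0.89. The 100 genes chosen after this step had a median span of 4786 bases, near that of all genes tested. The step takes out what varies with span by construction, so this value is no test of the excess of long genes.

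The first question about these genes was whether they changed with antag-305. Group means had been removed before the correlations were taken, so the difference between treatments did not enter them, but egr, the gene they were taken to, was itself called in this comparison. With antag-305, 27 of the 100 genes were significantly higher in the brain and 0 were lower (edgeR quasi-likelihood test, FDR under 0.05 over all genes tested), against 5.47% of all genes called higher and 5.87% called lower. All 100 had a log2 fold change above 0, against 48.9% of all genes, and 98 or more did without R3, with the library total as a covariate or with the span offset. Their median was 0.22, against -0.004 over all genes, and the range ran from 0.03 for osp to 1.20 for HR38. No gene of the 100 was called without colony R3, where the median log2 fold change was 0.15 and 0.0768% of all genes were called higher (edgeR). At an unadjusted P under 0.05 there were then 10, all higher, against 11.2% of all genes. Without R42, 17 were called, against 3.56% of all genes. With a replicate block on bee number, 15 were called, against 3.3%. With the library total as a covariate, chosen after seeing the data, 9 were called, and 2.73% of all genes were then called higher.

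**Figure D3:**
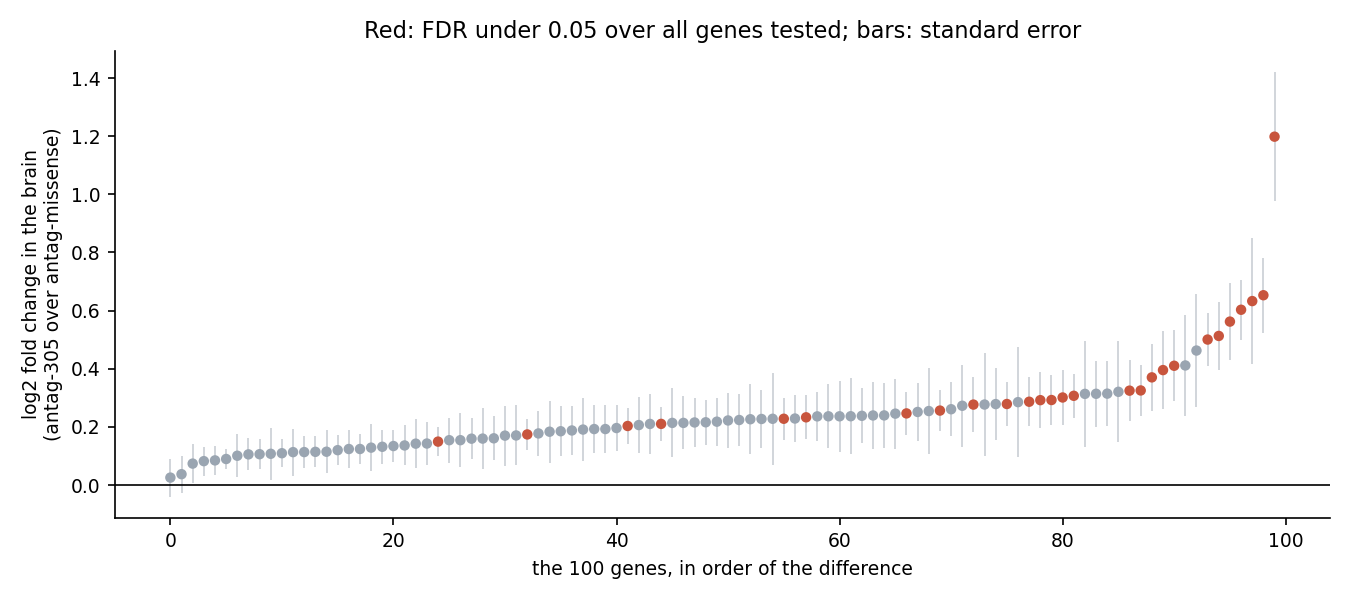
Log2 fold change in the brain, antag-305 over antag-missense, of each of the 100 genes, in order of size, with its standard error from the edgeR fit. The 27 genes in red had an FDR under 0.05 and all 100 points lie above 0.

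Egr itself rose with antag-305 (log2 fold change 0.92, SE 0.17, FDR = 1.38e-04 by edgeR). In 33 of 35 antag-305 brains it was above the antag-missense median of the pooled colonies. HR38 ranged from 10.9 to 76.5 CPM with a median of 36.9 CPM in antag-305 brains, and from 1.87 to 62.9 CPM with a median of 17.1 CPM in antag-missense brains. The groups overlapped, with 33 of 35 antag-305 brains above the antag-missense median of the pooled colonies. The pooled median hides a difference between colonies. Within R42 the medians of egr and of HR38 were both lower with antag-305 than with antag-missense. Over all colonies together, the log2 fold change of HR38 was 1.20 (SE 0.22, FDR = 1.38e-04 by edgeR). Without colony R3 the log2 fold change was 0.50 for egr and 0.57 for HR38, and neither was called.

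The 5 genes with the smallest P were LOC724177, LOC727423, HR38, LOC102656618 and LOC412858. LOC724177, an uncharacterized protein gene, ranged from 54.9 to 216 CPM (median 142) with antag-305 and from 38.8 to 159 CPM (median 93.9) with antag-missense, and rose by 0.60 (SE 0.10, FDR = 4.67e-05 by edgeR). LOC727423 had medians of 128 and 88.7 CPM and a log2 fold change of 0.50 (SE 0.09). LOC102656618 had medians of 28.8 and 17.4 CPM and a log2 fold change of 0.65 (SE 0.13). LOC412858 had medians of 61.8 and 46.8 CPM and a log2 fold change of 0.51 (SE 0.12). In all 5 genes the ranges of the treatments overlapped, and at least 29 of 35 antag-305 brains were above the antag-missense median of the pooled colonies. None of the 5 was called without R3, where LOC724177 had a log2 fold change of 0.37, LOC727423 of 0.29 and LOC412858 of 0.22.

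Genes with other known roles that rose with antag-305 included LOC551895, the kinase 17A gene (log2 fold change 0.56, FDR = 0.00401 by edgeR), LOC409288, the tribbles homolog (0.29, FDR = 0.0235), and PRF, profilin (0.23, FDR = 0.0368). InR-2 (0.46, FDR = 0.0926) and nAChRb1 (0.41, FDR = 0.0943) did not pass the test, and nor did Dscam (0.23, FDR = 0.3).

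Other called genes with a description included LOC412778, LOC410589, LOC413423 and LOC725581. LOC412778, the proteoglycan gene, ranged from 41.3 to 119 CPM (median 72.1) with antag-305 and from 27.9 to 104 CPM (median 52.3) with antag-missense (log2 fold change 0.37, SE 0.11). LOC410589, the semaphorin gene, had medians of 50.1 and 41.9 CPM (0.29, SE 0.08). LOC413423, described as hemicentin-1, had medians of 13.3 and 8.80 CPM (0.63, SE 0.22, FDR = 0.0462 by edgeR). The ranges of the 2 treatments overlapped in each of these genes. LOC725581, described as a band 3 anion transport protein, had medians of 193 and 137 CPM (0.40, SE 0.13). The smallest log2 fold change among the 27 called genes was 0.15, for LOC408874.

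Of 14 matched activity-linked and ecdysone-response factors, egr included, only HR38 was among the 100 genes. The 8 that carry only a LOC number took their names from the study's table of genes that differed, and all 8 were called higher, so their count is no result. Of the 6 matched by symbol, 1 was called higher, ultraspiracle, against 5.47% of all genes. Ultraspiracle, the partner of the ecdysone receptor, had an r to egr of 0.79 and the ecdysone-induced gene LOC413076 an r of 0.74. The ecdysone receptor itself had an r of -0.01 and E75 of -0.62. LOC726289, described as transcription factor AP-1, had an r of 0.60 and LOC409401, described as a cyclic AMP-responsive element-binding protein, of 0.63. Lower values were found for LOC411207, described as CCAAT/enhancer-binding protein (0.30), and LOC410326, described as Krueppel-like factor 10 (0.09). Kakusei, which is not on this list, had an r of 0.16. The activity-linked genes thus did not all follow egr. Of 9 matched amine receptors, none was among the 100 and 5 were called higher, against the same 5.47% of all genes. The study had already reported biogenic amine terms among genes raised in these same brains, so this count is no independent result. The serotonin receptor 5-HT1 had the highest r of the 9 receptors, 0.83, and the dopamine receptors DopR2 and Dop1 had r of 0.74 and 0.72. Of the 35 transcription factors listed by the study, which were chosen on these samples, LOC410253 (ataxin-2 homolog, log2 fold change 0.31, FDR = 0.00557 by edgeR) and LOC410534 (0.41, FDR = 0.0243) were among the 100.

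The median treatment difference of the 100 genes varied among colonies. Fitted alone, R3 had a median log2 fold change of 0.34 over the 100 genes and 21 calls, where 3.21% of all genes were called higher. R2 had a median of 0.16 and 1 call, LOC727423, where 0.0439% of all genes were called higher. R42 had a median of 0.12 and 0 calls, where 0.0658% of all genes were called higher (edgeR), with 3 genes at an unadjusted P under 0.05, against 10.7% of all genes. In 90 of the 100 genes the difference was above 0 in all 3 colonies, against 26.9% of all genes tested. The interaction of treatment and colony was significant for 2 of the 100 genes, HR38 and LOC727423, against 0.428% of all genes. At an unadjusted P under 0.05 there were 7, against 5.64% of all genes, a like share (edgeR).

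**Figure D4:**
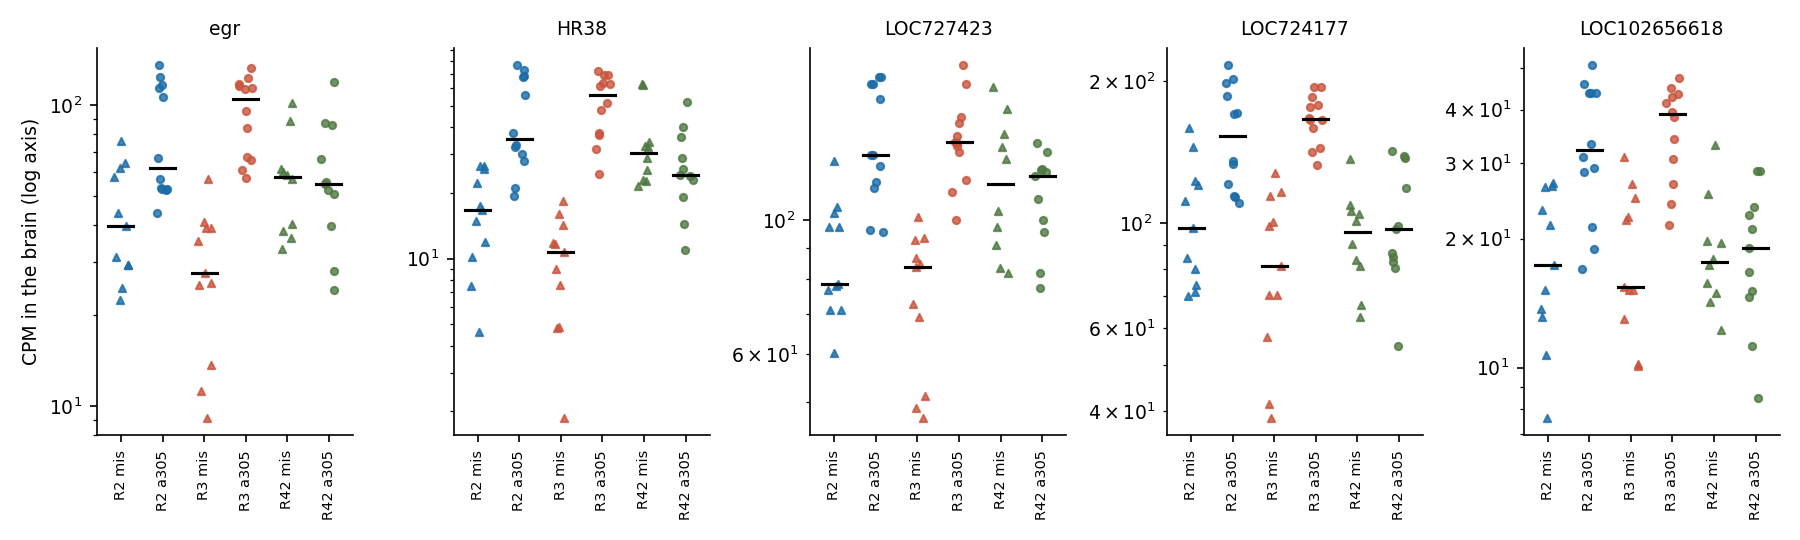
Brain CPM (log axis) of egr, HR38 and 3 other genes in each colony, with antag-missense (mis, triangles) and antag-305 (a305, circles). Points are single bees and lines are medians. In R3 the HR38 median was 10.7 CPM with antag-missense and 56.3 CPM with antag-305, and in R42 it was 30.6 and 24.2 CPM.

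HR38 had a log2 fold change of 1.44 (SE 0.28) in R2, 2.41 (SE 0.27) in R3 and -0.36 (SE 0.25) in R42 (interaction FDR = 2.19e-05 by edgeR). Its medians in R3 were 56.3 CPM with antag-305 and 10.7 CPM with antag-missense. In R42 the order was the reverse, with 24.2 and 30.6 CPM. LOC727423 had log2 fold changes of 0.66, 0.89 and -0.11 in the 3 colonies (interaction FDR = 0.00187 by edgeR). Egr differed by 0.90, 1.74 and 0.06 (interaction FDR = 0.0291 by edgeR).

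Differences between colonies in the treatment-adjusted level were called for 10 of the 100 genes, against 33.6% of all genes tested. LOC408677, which has no description here, had the smallest P, and its level in R3 lay below that in R2 by a log2 difference of -0.62 (FDR = 2.59e-05 by edgeR). Relative to R2, the median log2 difference of the 100 genes was -0.06 in R3 and -0.15 in R42.

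The fat body gave a comparison in a tissue that the rule did not use. Of the 100 genes, 87 passed its filter on low counts. The 13 that did not included HR38, nAChRb1, LOC412778 and LOC410534. HR38 stayed at or below 2.25 CPM in every fat body. Brain levels were higher than fat body levels in 81 of the 87 genes and lower in 3 in the antag-missense bees (edgeR, bee as a block), where 45.7% and 44.4% of all genes were called. Since the 87 had to pass both filters and were chosen on brain values, this count supports nothing more. The median log2 difference, brain over fat body, was 3.66. It was largest for LOC725960 (9.17, SE 0.21), LOC409235 (8.39) and Pkc (6.92). In bulk tissue, fewer cells of a type and less RNA per cell cannot be told apart.

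Vha16, LOC551852 and LOC409386 were lower in brain than in fat body, with log2 differences of -0.57, -0.44 and -0.30. Vha16 had a median of 276 CPM in antag-missense fat bodies and of 150 CPM in antag-missense brains.

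With antag-305, 0 of the 87 genes were called in the fat body, where 0.0678% of all genes were called in either direction (edgeR). At an unadjusted P under 0.05 there were 5, all higher, against 9.01% of all genes. DESeq2 called 1 gene higher, against 0.113% of all genes. The median log2 fold change was 0.05, and 55 of 87 genes were above 0, against 53.1% of all genes. Without R42, 3 genes were called higher, against 0.52% of all genes. The difference of the treatment effect between tissues was called for 0 of the 87 genes (0.338% of all genes, edgeR). At an unadjusted P under 0.05 there were 10, against 10.8% of all genes, a like share. The median of this difference was 0.24, and 75 genes were above 0, against 52.3% of all genes.

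In the fat body the treatment difference took both signs among colonies. Fitted alone, the median log2 fold change of the 87 genes was 0.42 in R2 and 0.24 in R3, with 0 genes called in either (edgeR). At an unadjusted P under 0.05 there were 17 in R2 and 4 in R3, against 9.52% and 3.51% of all genes. In R42 the median was -0.42, and 13 genes were called lower, against 8.81% of all genes. In 12 of these 13 the brain difference in R42 was above 0. The same held for 91 of the 100 genes and for 49.9% of all genes tested in the brain, so this count is not particular to the 13. The interaction of treatment and colony was called for 14 of the 87 genes in the fat body, against 10.5% of all genes. The 5 with the smallest P were LOC408586, LOC726101, LOC100577600, LOC410785 and LOC724417. LOC726101 had log2 fold changes of 0.90 in R2, 1.27 in R3 and -3.55 in R42 (interaction FDR = 0.0141 by edgeR), and LOC410785 of 0.62, 0.92 and -1.99 (interaction FDR = 0.0162 by edgeR). The summed neuron markers reached at most 55.5 CPM in the 11 R42 antag-305 fat bodies. The highest fat body of every other group lay between 312 and 945 CPM. Over all colonies the markers did not move alike. The log2 fold change was 0.49 for Syt1 and from -0.59 to -0.36 for NLG-3, NLG-4, NLG-5 and Nrx-1, and none of these was called. With the log2 sum of these markers as a covariate, chosen after seeing the data, 0 of the 87 genes were called for the interaction, and 0.509% of all genes were. The part of neurons in the colony differences was not tested.

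**Figure D5:**
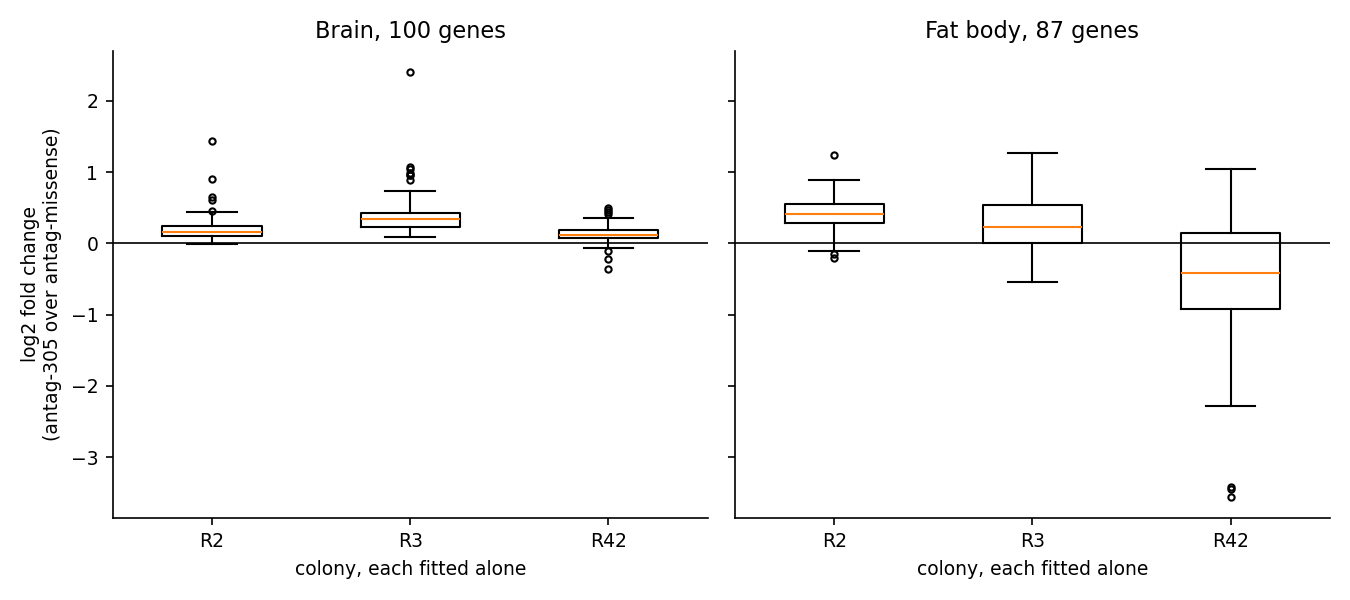
Log2 fold changes of the 100 genes in the brain and of the 87 genes tested in the fat body, antag-305 over antag-missense, with each colony fitted alone. Boxes span the quartiles, lines mark the medians and points lie beyond 1.5 times the box height. Brain medians are 0.16, 0.34 and 0.12 in R2, R3 and R42, and fat body medians 0.42, 0.24 and -0.42.

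Whether the genes also followed egr in the fat body was tested by the slope of each gene on egr within groups. Of the 87 genes, 56 had a significant positive slope and 12 a negative one (edgeR), against 27.4% and 37.6% of all genes tested. The median r to egr was 0.63, against 0.10 over all genes. Egr was low in this tissue, from 0.437 to 21.6 CPM with a median of 1.52 CPM, and in the 9 fat bodies with a neuron marker sum over 200 CPM it was at least 7.41 CPM. The r of egr to that sum was 0.91 over the 65 fat bodies, with group means removed. The markers differed here too, with an r of 0.10 for Syt1 and from 0.88 to 0.90 for NLG-3, NLG-4, NLG-5 and Nrx-1. With the neuron marker sum as a covariate, chosen after seeing the data, 17 of the 87 genes had a positive slope and 4 a negative one, against 12.6% and 10.5% of all genes. All 17 were among the 56.

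The 3 genes that followed egr most closely in the fat body were LOC411238, described as LIM domain-binding protein 2 (r = 0.93), LOC724417 (r = 0.93) and LOC410785 (r = 0.93). LOC411238 had a median of 8.42 CPM and a highest value of 101 CPM in antag-missense fat bodies. Vha16 (r = -0.85), LOC551852 (r = -0.65) and LOC552793 (r = -0.56) had the lowest r to egr in the fat body, although their r in the brain was 0.85, 0.85 and 0.87. The slope of Vha16 on egr in the fat body was -0.58 (SE 0.04, FDR = 3.48e-18 by edgeR).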

How the data were processed

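RNA-seq was performed on single brains and fat bodies. The authors aligned reads to the honey bee genome HAv3.1 with STAR 2.7.6a and counted them with featureCounts of Subread 2.0.0, and the deposited values are raw counts per gene span, without normalization. The strand setting and the handling of reads with several alignments are not given in the sources used here, so of the 100 genes the 44 that overlap a gene on the opposite strand and the 17 that overlap one on the same strand may share reads with it. Of the 138 libraries, 6 with a viral share over 0.5% were left out, all of them antag-missense. The paper gives its limit as 0.05%. The lowest chi-square per degree of freedom among 726 pairs of libraries of 1 group was 5.80, well beyond counting noise, and each library was used as 1 sample. Symbols came from RefSeq by matching gene spans (12331 of 12332), and descriptions from the study's tables. No sequences were used here.

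The 100 genes and the gene lists were chosen with earlier results of these data known. Tests covered genes over 1 CPM in 32 or more brains, or 30 or more fat bodies, and used edgeR 4.0.16 in R 4.3.3 (TMM, quasi-likelihood test in its legacy form, colony and treatment in the model, Benjamini-Hochberg FDR under 0.05). Tissues were compared with the bee as a block. DESeq2 1.42.0 was an alternative, with its size factors and its test. The others were no filter, no colony term, a block on bee number, leaving out each colony or the 1 brain library over 0.05% virus, a loess offset on gene span (span 0.5) and egr as a covariate. Levels are plain CPM, and correlations used a pseudocount of 1. On simulated counts for 9118 genes of the brain treatment comparison, 91.5% of 200 genes changed by 0.6 on the log2 scale were recovered. In the fat body treatment comparison 72% were. Each gene was simulated on its own, and the median brain change of the 100 genes was smaller, 0.22. The recovery of changes of that size was not tested. P-values measure the spread between bees.

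The genes named are egr, Hsp90, the 10 with the highest r, those at the limit, the 5 with the smallest P in the brain, those called for an interaction, those with the largest tissue differences or with the highest or lowest r in the fat body, and those on the gene lists. The genes named for their known roles, osp, LOC408677, COX3, Rpl39, Kakusei and nAChRb1 are not covered by it and were picked with their values in view. The values of 1 called gene are not reported here.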

Additional observations from a re-analysis of the deposited data

Results flagged for a closer look

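In the fat body, egr of 1 antag-missense bee of colony R2 lay far above the other 8 bees of its group, at 3.29 on the log2(CPM+1) scale, and the same group's highest neuron marker sum was 312 CPM. Groups of 4 to 10 samples were looked at for egr and the 10 genes with the highest r, 33 sets of values in all, and chance marks about 1 in 20.

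The treatment effect differed between colonies for 2 genes in the brain, HR38 and LOC727423, and for 14 genes in the fat body. The values in each colony are given above.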

How the results depend on the processing

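The 27 genes called higher in the brain became 17 without colony R42, 0 without R3, 15 with a replicate block on bee number and 9 with the library total as a covariate. With egr, centred in each group, as a covariate, 96 were called, since this removes spread within groups by construction, and 17.4% of all genes were then called higher. The other alternatives gave 22 to 33 calls, and no alternative gave a lower call. In the brain, LOC410044 turned to -0.049 without R3 and LOC725960 to -0.012 with the library total as a covariate. Osp, the smallest rise, turned to -0.011 without R3, -0.033 with the library total and -0.021 with the span offset. In the fat body, 3 genes were called without R42 and 1 by the DESeq2 test. With neuron markers as a covariate 1 was called, and 10 of all 8844 genes were then called higher. With that covariate the slopes on egr gave 17 positive and 4 negative calls, and the interaction of treatment and colony 0. Negative slopes numbered 7 without R3, where 2080 of all 8844 genes had one. Colony differences were called for 5 genes in antag-missense brains only, a count given here without its share over all genes. Of the 100 genes, 64 were chosen again from antag-305 brains, 49 from antag-missense brains and 52 after the span offset. The cause of these changes was not tested.

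The treatments share bee numbers, but the deviations of same-numbered brains had a median correlation of 0.04, with 13 of 28 pairs over 0.1, so the numbers were not taken as pairs. With a replicate block on bee number, 15 genes were called in the brain, and 33 in the same bees without the block. Of all 9118 genes, 301 were called higher with the block and 589 without it.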
